A study of Drosophila melanogaster with 12 samples.

Results

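Among the genes of Drosophila melanogaster that the deposited table lists under a CG symbol, 60 were higher in larval fat bodies labelled svp RNAi than in their controls on both of the diets tested. A CG symbol is the placeholder given to a computed gene until it is named for a function or phenotype, and 15 of these genes have since been named, so they form a set by pattern and not a pathway. The members were chosen by their measured genotype difference in the deposited values. A gene was taken when its log2 ratio, log2((mean of the 3 svp RNAi libraries + 1)/(mean of the 3 control libraries + 1)), was 1 or more on each diet and when the lowest of the 3 svp RNAi values lay above the highest of the 3 control values on each diet. The 60 members come from 4632 CG genes among 9367 genes kept, and 54 genes with other names met the same rule. This share is 1.3% of the CG genes and 1.22% of all genes. On 1 diet alone the rule held for 1.92% of all genes on the control diet and for 2.73% on high sugar. Because the rule used the genotype difference on both diets, the genotype values below are a description and carry no test.

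All 12 libraries came from fat bodies of female wandering third-instar larvae, the stage at which larvae leave the food before pupation. Every larva carried a UAS-Dcr2 transgene on the X and the r4-GAL4 driver, which acts in the fat body. In the controls these came together with the VDRC stock 60100, and with the VDRC stock 100762 in those labelled svp RNAi, a single UAS hairpin line against seven-up (svp). Each genotype was reared on food with 0.15 M sucrose (control diet) or 0.7 M sucrose (high sugar), which makes 4 groups of 3 libraries. No label tells if replicates were separate pools of larvae, so the p-values below reflect the scatter of these libraries alone, which may be technical.

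The svp product is the fly COUP-TF, an orphan nuclear receptor that binds DNA and is best known as a repressor of transcription. The larval fat body stores fat, glycogen and protein, as the liver and adipose tissue do in vertebrates, and secretes most proteins of the hemolymph, including serine proteases that run in cascades and control melanization and the Toll pathway. Both roles are background to the genes described here.

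The libraries held 4380821 to 6557494 reads over the genes kept, recovered from the deposited values. The level of svp was 516, 477 and 373 in the control-diet controls and 1658, 1664 and 1350 in the control-diet libraries labelled svp RNAi, in deposited normalized abundance, a read-like value not divided by gene length. On high sugar svp stood at 631, 628 and 664 in the controls and at 1712, 1480 and 2180 with the svp RNAi label. The targeted gene was thus higher, not lower, in every library labelled svp RNAi. The gene-level value cannot tell hairpin reads from the endogenous transcript. The fat body markers were abundant in all 12 libraries, with a summed level of 7 markers from 1052738 to 1888353. Of the 7, 5 were apart and lower with the svp RNAi label on the control diet, where 12.3% of all genes were. On high sugar 4 were lower and 1 higher, where 15.3% and 16.4% of all genes were. Log2 ratios on the 2 diets ran from -3.77 and -3.44 in Lsp1alpha to 0.17 and 0.65 in Lsp2. Those of Rfabg were -0.03 and -0.15. Sums of the 7 markers did not overlap on the control diet (1052738 to 1451167 against 1752781 to 1888353). On high sugar the sums were apart too, at 1252085 to 1458650 against 1646673 to 1757974. The part of this shift in the members' values was not tested.

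The median log2 ratio of the 60 members was 1.55 on the control diet and 1.65 on high sugar, with ranges of 1.02 to 4.47 and 1.02 to 4.64. The mean of the 2 ratios was at least 3 in 8 members, at least 2 in 19 and under 1.5 in 25. Members together made up 0.303% to 0.386% of the deposited total in the control-diet controls and 1.1% to 1.2% in the control-diet libraries labelled svp RNAi. On high sugar they made up 0.284% to 0.432% in the controls and 1.05% to 1.19% in the libraries labelled svp RNAi. Members ranged widely in depth: 16 had at least 100 recovered reads in every library, and 22 had fewer than 10 in at least 1 control library. Leaving out 1 library moved the fold of 5 members by over 1.5 times, all on the control diet, and these are named with their values below.

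**Figure D1:**
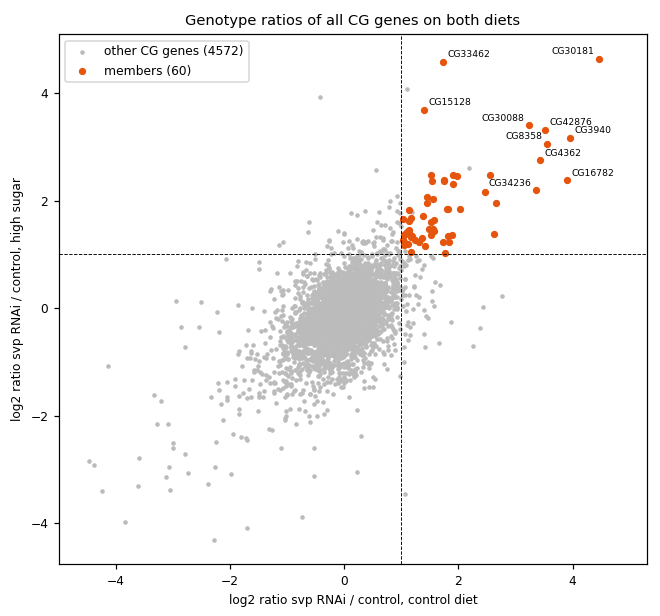
Genotype log2 ratio on the control diet (x axis) against high sugar (y axis) for 4632 CG genes, with the 60 members in orange and dashed lines at the threshold of 1. Members lie at the upper right by construction, and CG30181 lies at the far corner with ratios of 4.47 and 4.64.

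The largest ratios belonged to CG30181 (FBgn0050181, arm 2R), whose current symbol is ppk3, a gene of the pickpocket family of sodium channel subunits. It stood at 1.66, 6.55 and 3.12 in the control-diet controls and at 130, 87.1 and 97.3 in the control-diet libraries labelled svp RNAi. On high sugar it stood at 4.26, 2.92 and 4.11 in the controls and at 114, 115 and 123 with the svp RNAi label. The groups were far apart on both diets, and the level of the libraries labelled svp RNAi was much the same on each. The folds were 22.2 and 24.9. They rest on few control reads, 10 over the 3 control-diet controls and 11 over the 3 high-sugar controls, against 354 and 364. The ratio of scaled reads was 27.8 on the control diet with an exact (Clopper-Pearson) 95% interval of 14.9 to 58.5, and 31.4 on high sugar with an interval of 17.4 to 63.5. Such intervals cover counting error only. They do not allow for the choice of the gene by this same ratio, so they are no test of it.

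The next protein-coding gene along the arm from CG30181 is bw, which encodes a transporter of eye pigment precursors. The level of bw was 43.6, 108 and 91.2 in the control-diet controls and 3201, 2313 and 2358 in the control-diet libraries labelled svp RNAi. On high sugar it was 84.0, 57.6 and 32.0 in the controls and 3464, 3430 and 3673 in the libraries labelled svp RNAi. In both neighbours every library labelled svp RNAi lay more than 10 times above every control library of its diet. No exon of CG30181 overlaps another gene in the BDGP6 annotation. The genotypes come from different stocks, and with these groups a difference between the stocks at this place cannot be told apart from a response to the hairpin. This limits what the largest ratio of the set can be read as. The stocks differ in the same way for the ratios of all other members.

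Serine proteases and their homologs could be read from RefSeq synonyms that give a numbered SP (serine protease) or SPH (homolog) name. The match is by synonym alone, and 9 genes that carry such a synonym but are known as other proteins, such as Ank2 and skd, were left out after the values were seen. Of the 60 members, 9 carried such a number (15%), 5 of them SP and 4 SPH, against 86 of 4613 matched CG genes (1.86%) and 130 of 9260 matched genes of any name (1.4%). The median log2 ratio of the 130 genes was -0.05 on the control diet and -0.07 on high sugar, beside 0.01 and -0.01 for all genes. Of the 130, 11 met the rule (the 9 members, etaTry and Sp212), as 1.22% of all genes did, and 5 met its mirror image, as 1.55% of all genes did. Without the condition on size, 19 were apart and higher on both diets and 11 apart and lower, where the shares over all genes were 5.87% and 5.34%.

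**Figure D2:**
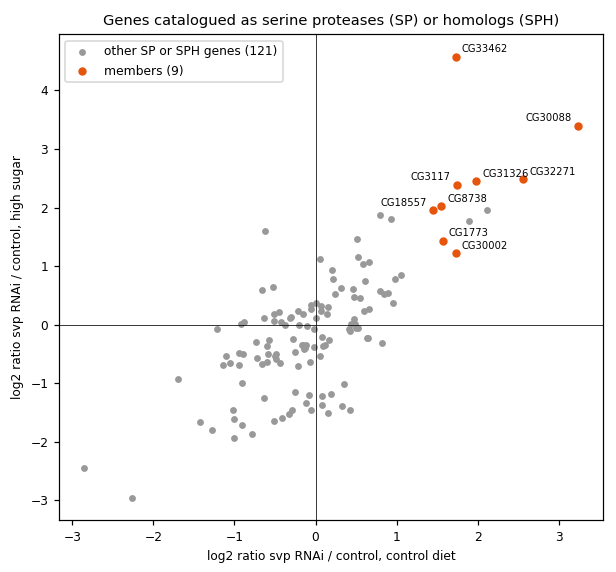
Genotype log2 ratio on the control diet (x axis) against high sugar (y axis) for the 130 genes with an SP or SPH number, members in orange. The 9 members lie in the upper right, while the median of the 130 genes was -0.05 on the control diet and -0.07 on high sugar.

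CG30088 (FBgn0050088, 2R), numbered among the SP genes, had ratios of 3.24 and 3.40. It stood at 13.4, 11.1 and 6.57 in the control-diet controls and at 97.7, 128 and 93.9 in the control-diet libraries labelled svp RNAi. On high sugar it was at 3.34, 12.7 and 12.3 against 108, 119 and 102. Groups did not come near each other on either diet. All of its exon length lies opposite an annotated antisense RNA, asRNA:CR44372, and without stranded counting the reads of the pair cannot be told apart.

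CG33462 (FBgn0053462, 2R), another SP gene, had the largest difference between the ratios of the diets, 1.73 against 4.58. On the control diet it was at 29.3, 214 and 39.8 in the controls and at 325, 231 and 388 in the libraries labelled svp RNAi. On high sugar it was at 27.9, 27.3 and 49.2 in the controls and at 951, 924 and 687 in the libraries labelled svp RNAi. A single control, replicate 2 on the control diet, lay far above the other controls. Without it the control-diet fold went from 3.31 to 8.88, while the high-sugar fold was 23.9.

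CG32271 (FBgn0052271, 3L), also an SP gene, stood at 1.62, 4.49 and 9.46 against 39.5, 36.2 and 31.2 on the control diet. On high sugar it stood at 12.8, 6.79 and 16.4 against 88.9, 64.0 and 62.0. The folds were alike, at 5.91 and 5.59, although without control-diet control replicate 3 the former was 9.03. The SPH gene CG31326 (FBgn0051326, 3R) stood at 54.9, 79.5 and 8.46 against 158, 238 and 177 on the control diet and at 80.3, 129 and 106 against 578, 683 and 474 on high sugar. It had the widest spread within groups of all members, with a pooled SD of 0.87 on the log2 scale, and control-diet control replicate 3 was its lowest library. The gene CG33109 separates it from the serine protease gene Sp212, which met the same rule. Sp212 had group means of 123 ± 75.2 against 461 ± 79.9 (SD, n = 3) on the control diet and of 307 ± 89.6 against 1048 ± 62.9 (SD, n = 3) on high sugar. The remaining SPH member outside the neighbour groups, CG8738 (FBgn0033321, 2R), was at 74.0, 96.9 and 96.0 against 301, 239 and 245 on the control diet. On high sugar it was at 118, 106 and 94.5 against 351, 461 and 492.

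Neighbouring genes held 4 further serine protease members. CG18557 and CG3117 follow each other on 2L. Both carry SPH numbers for homologs with a clip domain, the regulatory domain of hemolymph protease cascades, as CG8738 does too. CG18557 was at 49.2, 87.7 and 64.0 against 184, 183 and 186 on the control diet and at 57.8, 66.4 and 81.1 against 315, 264 and 224 on high sugar. CG3117 was at 189, 202 and 180 against 707, 687 and 516 on the control diet and at 185, 192 and 197 against 1211, 810 and 1009 on high sugar. In both genes the controls of the diets were much alike, and the libraries labelled svp RNAi reached higher values on high sugar. Their folds were 2.73 and 3.34 on the control diet and 3.87 and 5.25 on high sugar.

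CG30002, CG1773 and CG10459 are consecutive protein-coding genes on 2R, and the former pair carry SP numbers. CG30002 was at 53.0, 50.2 and 53.3 against 181, 171 and 173 on the control diet and at 23.8, 68.4 and 49.3 against 102, 146 and 84.9 on high sugar. CG1773 was at 388, 429 and 380 against 1210, 1216 and 1127 on the control diet and at 202, 479 and 351 against 796, 1001 and 1000 on high sugar. Both were tight on the control diet and wide on high sugar, where control replicate 1 was the lowest and control replicate 2 the highest control in each. CG10459 was at 44.1, 64.2 and 26.8 against 122, 109 and 70.4 on the control diet and at 26.7, 33.2 and 17.5 against 80.1, 105 and 96.5 on high sugar. CG1773 and CG10459 share 45 bases of exon on the same strand, so reads there could be counted for either gene. The mean per kilobase of exon was 637 in CG1773 and 55.9 in CG10459. Such reads are thus a small part for CG1773 but could be a sizeable part for CG10459. Their share in the CG10459 ratios was not tested.

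The other neighbouring members were CG11737 and CG31454 on 3R. CG11737 carries TMEM135 as a synonym, after a multipass membrane protein of vertebrates. It was at 455, 409 and 360 against 2128, 1599 and 1253 on the control diet and at 426, 566 and 492 against 1934, 1542 and 1851 on high sugar. CG31454 was at a much lower level, at 3.49, 3.39 and 5.66 against 20.7, 20.3 and 11.2 on the control diet and at 9.62, 9.76 and 10.3 against 27.4, 24.4 and 21.2 on high sugar. Of the 60 members, 7 thus stood directly next to another member. The matching share over all genes was not computed, so this count is no measure of clustering.

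**Figure D3:**
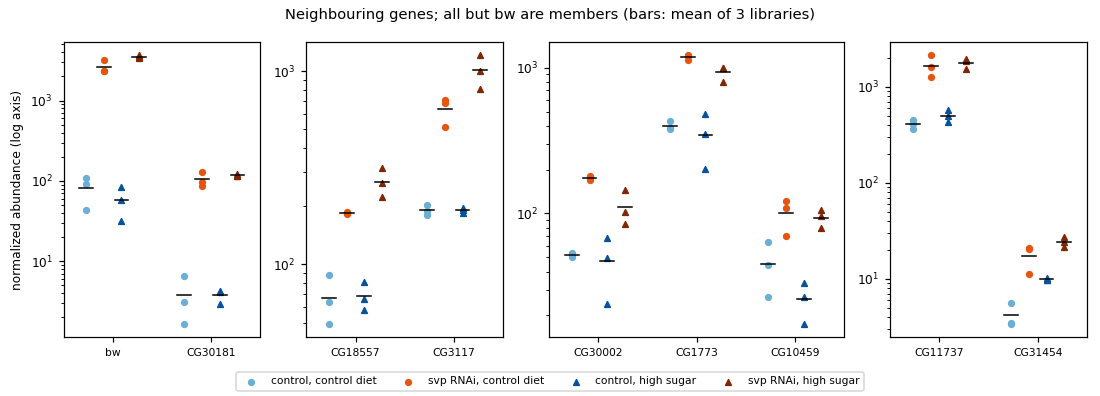
Normalized abundance (y axis, log scale) in each of the 12 libraries for neighbouring genes, with bars at the mean of 3 libraries and colours for the 4 groups. bw and CG30181 show the widest gaps between genotypes, with folds of 22.2 and 24.9 for CG30181.

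A few other members act on proteins or peptides and are described for that role. CG8358 (FBgn0037727, 3R), now Nepl12 after the neprilysin-like metallopeptidases, was at 7.91, 9.98 and 7.61 against 131, 135 and 63.6 on the control diet and at 15, 28.4 and 11.4 against 143, 172 and 159 on high sugar. CG8539 (FBgn0035791, 3L), a predicted zinc carboxypeptidase, was at 17.0, 6.91 and 14.6 against 68.1, 87.7 and 69.2 on the control diet and at 33.1, 33.2 and 29.8 against 180, 120 and 136 on high sugar. In each genotype every high-sugar library of CG8539 lay above every control-diet library. Its diet difference averaged over both genotypes is tested below. CG10157, now GILT2, belongs to a family of lysosomal thiol reductases that open disulfide bonds of proteins. It was at 299, 343 and 190 against 652, 516 and 582 on the control diet and at 407, 580 and 416 against 1187, 1152 and 1326 on high sugar.

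CG3940 (FBgn0037788, 3R), now CAH7 after the carbonic anhydrases, which interconvert carbon dioxide and bicarbonate, had the second highest mean ratio. It was at 13.9, 24.4 and 24.7 against 419, 312 and 283 on the control diet and at 27.8, 35.2 and 32.9 against 285, 267 and 333 on high sugar. The folds were 15.4 and 8.98, and each library labelled svp RNAi stood at more than 7 times the highest control of its diet.

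Shmt, fiz and Srx, enzymes among the 5 members with the highest values, had folds of 2.2, 2.96 and 2.02 on the control diet and of 3.07, 3.12 and 2.42 on high sugar. CG3011, now Shmt, encodes serine hydroxymethyltransferase, which moves a carbon unit from serine to folate. It was at 3662, 5429 and 4462 against 11274, 9704 and 8856 on the control diet and at 3581, 4699 and 3690 against 10981, 12904 and 12835 on high sugar. CG9509, now fiz, of the glucose-methanol-choline oxidoreductase family, was at 1466, 1845 and 1755 against 5055, 4924 and 5042 on the control diet and at 1448, 2692 and 1788 against 5678, 6102 and 6716 on high sugar. The libraries labelled svp RNAi were close together in fiz on the control diet, with an SD of 72.0 at a mean of 5007. CG6762, now Srx, encodes sulfiredoxin, which restores overoxidized peroxiredoxins. It was at 3289, 3522 and 2830 against 7988, 6202 and 5301 on the control diet and at 2006, 2731 and 2519 against 5093, 5060 and 7388 on high sugar. Its exons overlap Arp8 and an antisense RNA on the opposite strand, over 20.4% and 41.1% of their length. Arp8 itself had log2 ratios of 0.53 and 0.19 and a mean value of 173, far under that of Srx.

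Of the remaining enzymes, CG14291, now Sgsh after the sulfamidase that breaks down heparan sulfate in lysosomes, was at 207 ± 28.3 against 584 ± 87.7 on the control diet and at 249 ± 13.6 against 693 ± 92.6 on high sugar (SD, n = 3). CG9989, now Sid, a stress-induced DNase, was at 631 ± 145 against 1622 ± 117 on the control diet and at 724 ± 227 against 1779 ± 176 on high sugar (SD, n = 3). CG9497 and CG33301 carry clade numbers of the ecdysteroid kinase-like family as synonyms, which 31 of 9260 matched genes do. CG9497 was at 10.6, 10.1 and 11.7 against 85.9, 86.9 and 48.1 on the control diet and at 5.44, 10.7 and 11.3 against 33.0, 46.1 and 35.7 on high sugar. CG33301 had folds of 3.48 and 3.57.

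Some members are known or predicted carriers of small molecules, and they are described for that role, with no count of such genes over the table. CG7777, now Prip, an aquaporin, was at 158, 125 and 223 against 613, 528 and 768 on the control diet and at 62.2, 88.8 and 109 against 406, 466 and 419 on high sugar. CG4484, now Slc45-1, a sugar transporter, was at 880, 816 and 662 against 2796, 1877 and 2062 on the control diet and at 500, 515 and 604 against 1977, 1359 and 1566 on high sugar. In Prip every high-sugar library was below every control-diet library of its genotype, and in Slc45-1 this held for the controls, while the libraries labelled svp RNAi overlapped between diets in these values. CG11576, now Rift after riboflavin transport, had folds of 2.18 and 2.29, and CG13384, of the family of proton-coupled amino acid transporters, of 2.05 and 2.55. CG8034 and CG8468, of the monocarboxylate transporter family, had folds of 2.14 and 2.66 and of 2.06 and 2.29, and CG4928, related to Unc-93, of 2.93 and 2.79.

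Among members with a known part in signalling or at the cell surface, CG15917, now Gbp1, encodes a growth-blocking peptide, a small secreted factor through which the fat body acts on growth and immunity. It was at 174, 162 and 153 against 535, 399 and 332 on the control diet and at 82.5, 152 and 141 against 399, 401 and 431 on high sugar. CG10824, now cDIP, a leucine-rich repeat protein that binds cell surface proteins of the Dpr family, was at 156, 169 and 133 against 461, 420 and 460 on the control diet and at 94.8, 54.6 and 70.9 against 426, 336 and 384 on high sugar. In both genes the genotypes were far from overlapping, and the control-diet libraries labelled svp RNAi were closer together in cDIP than in Gbp1. CG8795, now PK2-R2, a pyrokinin receptor, was low throughout, at 7.56 ± 4.08 against 18.4 ± 5.93 and at 12.3 ± 5.51 against 32.6 ± 5.39 (SD, n = 3).

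Most members, 45 of 60, still carry a CG or CR symbol in RefSeq. CG13962 (FBgn0032824, 2L) had the highest level of all members, also per kilobase of exon, at a mean of 12023 per kilobase, above 99.6% of all genes. It was at 4660, 4456 and 4097 against 18517, 12577 and 15279 on the control diet and at 2705, 4253 and 4283 against 13935, 11435 and 14749 on high sugar. The folds of 3.51 and 3.57 were nearly equal. Next in level per kilobase came Srx with 3942, Shmt with 3047, CG6891 with 1725 and fiz with 1245. CG6891, whose synonym Cotl1 stands for coactosin-like actin-binding proteins, was at 1509, 1619 and 1353 against 3481, 3374 and 3224 on the control diet and at 1653, 2428 and 1744 against 3989, 4166 and 3857 on high sugar.

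Several uncharacterized members had ratios among the highest. CG4362 (FBgn0038784, 3R) was at 81.4, 61.6 and 85.4 against 823, 816 and 831 on the control diet and at 138, 50.6 and 117 against 760, 556 and 766 on high sugar. CG42876 (FBgn0262150, 2L) was at 6.04, 16.4 and 5.10 against 110, 130 and 106 on the control diet and at 5.37, 9.80 and 3.11 against 59.4, 73.0 and 77.9 on high sugar. In CG4362 the control-diet libraries labelled svp RNAi agreed within an SD of 7.27, and in CG42876 the control-diet fold of 11.4 became 17.7 without control replicate 2. CG34236 (FBgn0085265, 2R) was at 4.52, 1.18 and 1.68 against 27.6, 45.8 and 30.4 on the control diet and at 6.42, 7.82 and 6.17 against 31.1, 41.5 and 31.4 on high sugar. CG16782 (FBgn0029659, X) was at 0.843, 2.20 and 1.52 against 49.4, 32.6 and 27.7 on the control diet and at 2.12, 0.970 and 1.03 against 9.40, 18.1 and 6.57 on high sugar. The controls of CG16782 amount to 4 reads on each diet, against 123 and 34, which gives ratios of scaled reads of 24.1 with an exact 95% interval of 9.19 to 90.0 and of 8.07 with an interval of 2.88 to 31.3. These intervals too cover counting error only, for a gene chosen by this same ratio.

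**Figure D4:**
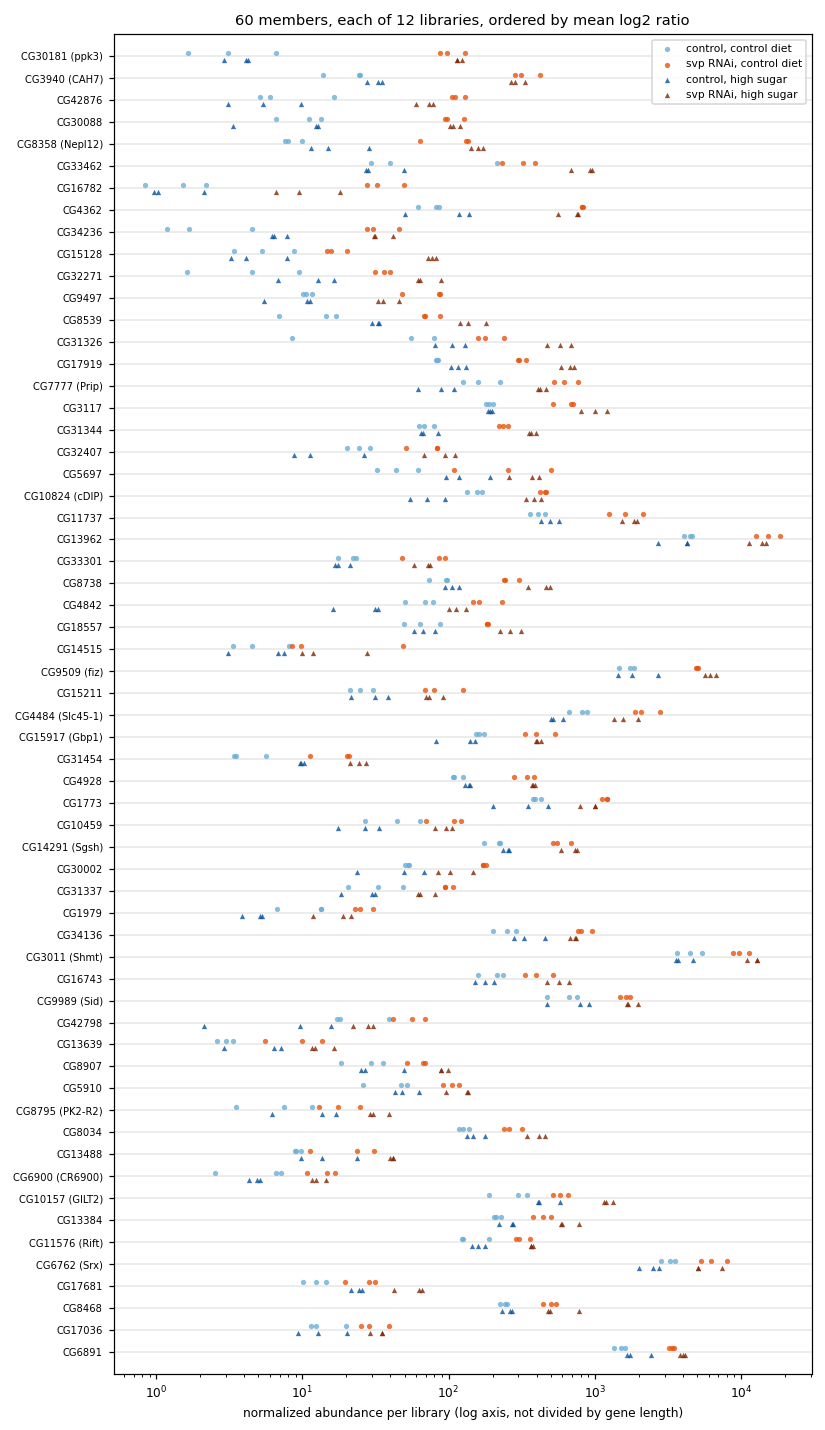
Normalized abundance (x axis, log scale) of each of the 60 members in each of the 12 libraries, ordered by mean log2 ratio from CG30181 at the top, with circles for the control diet and triangles for high sugar, blue for control and orange or brown for libraries labelled svp RNAi. CG13962 lies farthest to the right, between 2705 and 18517, and CG16782 reaches farthest to the left, at 0.843.

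The ratio was larger on high sugar than on the control diet in 36 of the 60 members. The matching share over all genes is not given, so this count is no result about the members. On 1 diet alone the rule also held for more of all genes on high sugar (2.73%) than on the control diet (1.92%). The largest differences of the log2 ratios, high sugar minus control diet, were 2.85 in CG33462, 2.29 in CG15128, -1.52 in CG16782, -1.26 in CG5697 and -1.17 in CG34236. CG15128 (FBgn0034467, 2R) was at 5.26, 8.79 and 3.41 against 14.8, 20.3 and 15.6 on the control diet and at 3.26, 7.84 and 4.12 against 77.4, 72.0 and 82.0 on high sugar. Its controls were alike on both diets, and the libraries labelled svp RNAi were not. CG5697 (FBgn0038846, 3R) was at 62.2, 43.6 and 32.4 against 256, 504 and 109 on the control diet and at 117, 191 and 96.7 against 258, 374 and 417 on high sugar. Its control-diet libraries labelled svp RNAi were widely spread, and without replicate 2 the fold went from 6.19 to 3.91. In CG14515 the same library, at 48.4 beside 9.82 and 8.46, set the control-diet fold, which fell from 3.68 to 1.61 without it. These differences are built from the values that the rule used and were not tested.

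At the edge of the rule, the smaller of the 2 log2 ratios was 1.015 in Srx, 1.017 in CG34136 and 1.029 in CG16743. Just outside it were CG7763 at 0.985, with ratios of 0.99 and 1.53, and CG5321 and CG11034, both at 0.975. CG34136 went from 247 ± 43.6 to 842 ± 99.7 on the control diet and from 354 ± 91.1 to 718 ± 38.4 on high sugar, and CG16743 from 203 ± 39.6 to 415 ± 93.4 and from 178 ± 27.1 to 566 ± 96.4, control to svp RNAi label (SD, n = 3). CG7763 had group means of 369 against 731 and 187 against 544, CG5321 of 215 against 423 and 221 against 752, and CG11034 of 89.5 against 256 and 87.1 against 172. The genes on either side of the threshold differ little, and 5 more CG genes passed both ratios but had overlapping libraries.

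The diet difference averaged over both genotypes was tested, since the rule used genotype differences and not this contrast. It is not fully independent of the rule: the contrasts are orthogonal only where all groups vary alike, which low control counts go against, and the condition of no overlap acts on the spread that enters the test. The share of members called is therefore given without comparison as a result. On high sugar 6 members rose and 8 fell in this averaged contrast (limma, adjusted p under 0.05 over 9367 genes), while 46 did not pass. Called members were 23.3% of the set. Over all genes 5.99% were called higher and 5.06% lower, 11.0% in either direction. The median averaged log2 difference of the members was 0.06, beside -0.01 for all genes, and 35 of 60 lay above 0. Values in this comparison are recovered reads scaled jointly over all libraries, since the deposited values had been adjusted for each diet apart.

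Of the genes that rose, CG17919 (FBgn0037433, 3R), of the phosphatidylethanolamine-binding protein family, had the lowest adjusted p. Its scaled reads were 86.7, 89.3 and 84.7 on the control diet and 128, 99.9 and 111 on high sugar in the controls, and 308, 350 and 313 against 691, 565 and 654 in the libraries labelled svp RNAi. High sugar was above the control diet in every library of each genotype, with an averaged log2 difference of 0.67 ± 0.09 (SE, limma, adjusted p = 0.000386). CG8539, the predicted carboxypeptidase, went from 17.5, 7.05 and 15.4 to 32.0, 31.7 and 28.6 scaled reads in the controls and from 70.4, 90.5 and 72.1 to 173, 114 and 132 in the libraries labelled svp RNAi, a rise of 1.03 ± 0.19 (SE, limma, adjusted p = 0.00409). GILT2 rose by 0.81 ± 0.14 and CG17681 by 0.87 ± 0.18 on the log2 scale (SE, limma, adjusted p = 0.00242 and 0.00664). All of these were apart between diets in both genotypes.

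The other members that rose were the SPH gene CG31326 and CG15128. CG31326 had scaled reads of 57.2, 84.6 and 6.16 against 77.3, 123 and 101 in the controls, which overlap, and of 163, 245 and 184 against 556, 655 and 457 in the libraries labelled svp RNAi. Its averaged difference was 1.55 ± 0.44 (SE, limma, adjusted p = 0.0360), and leaving out single libraries ended the call in 8 of 12 cases, all but those without a control-diet control or without control-diet svp RNAi replicate 2. CG15128 rose by 0.90 ± 0.25 (SE, limma, adjusted p = 0.0335). Its difference was -0.23 in the controls and 2.03 with the svp RNAi label, and its call was also lost in 8 of those 12 cases, among them those without each high-sugar library labelled svp RNAi.

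Among the members that fell, cDIP fell by 0.76 ± 0.13 on the log2 scale (SE, limma, adjusted p = 0.0018), from 162, 179 and 137 to 91.8, 52.3 and 68.0 scaled reads in the controls and from 476, 435 and 478 to 410, 322 and 370 in the libraries labelled svp RNAi. CG4842 (FBgn0036620, 3L) went from 52.6, 72.8 and 81.6 to 15.5, 29.9 and 31.5 in the controls and from 239, 168 and 152 to 96.3, 108 and 127 in the libraries labelled svp RNAi, a difference of -1.08 ± 0.19 (SE, limma, adjusted p = 0.00218). The aquaporin gene Prip went from 165, 132 and 234 to 59.8, 85.0 and 104 in the controls and from 633, 547 and 799 to 391, 446 and 404 in the libraries labelled svp RNAi, a difference of -0.87 ± 0.16 (SE, limma, adjusted p = 0.0031). The diets were apart in each genotype in all of these. The sugar transporter gene Slc45-1 fell by 0.61 ± 0.12 (SE, limma, adjusted p = 0.00626), from 822 ± 120 to 518 ± 53.1 in the controls and from 2328 ± 499 to 1571 ± 305 in the libraries labelled svp RNAi (SD, n = 3). In scaled reads, Prip and Slc45-1 were thus higher with the svp RNAi label on both diets and lower on high sugar in both genotypes.

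The remaining falls were less steady. CG42798 had the largest, -1.38 ± 0.35 (SE, limma, adjusted p = 0.0207), with a call lost without control-diet control replicate 1. CG1979 fell by 0.89 ± 0.24 (SE, limma, adjusted p = 0.0295), a call lost without control-diet replicates 1 or 2 or high-sugar replicate 2 of the controls and without replicate 2 labelled svp RNAi of either diet. CG16782 and CG9497 passed narrowly, with -0.96 ± 0.29 and -0.69 ± 0.21 (SE, limma, adjusted p = 0.0499 and 0.0473), and each call was lost in 9 of the 12 cases. Both were apart between diets in the libraries labelled svp RNAi and overlapped in the controls, and whether the genotypes differ in this was not tested.

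**Figure D5:**
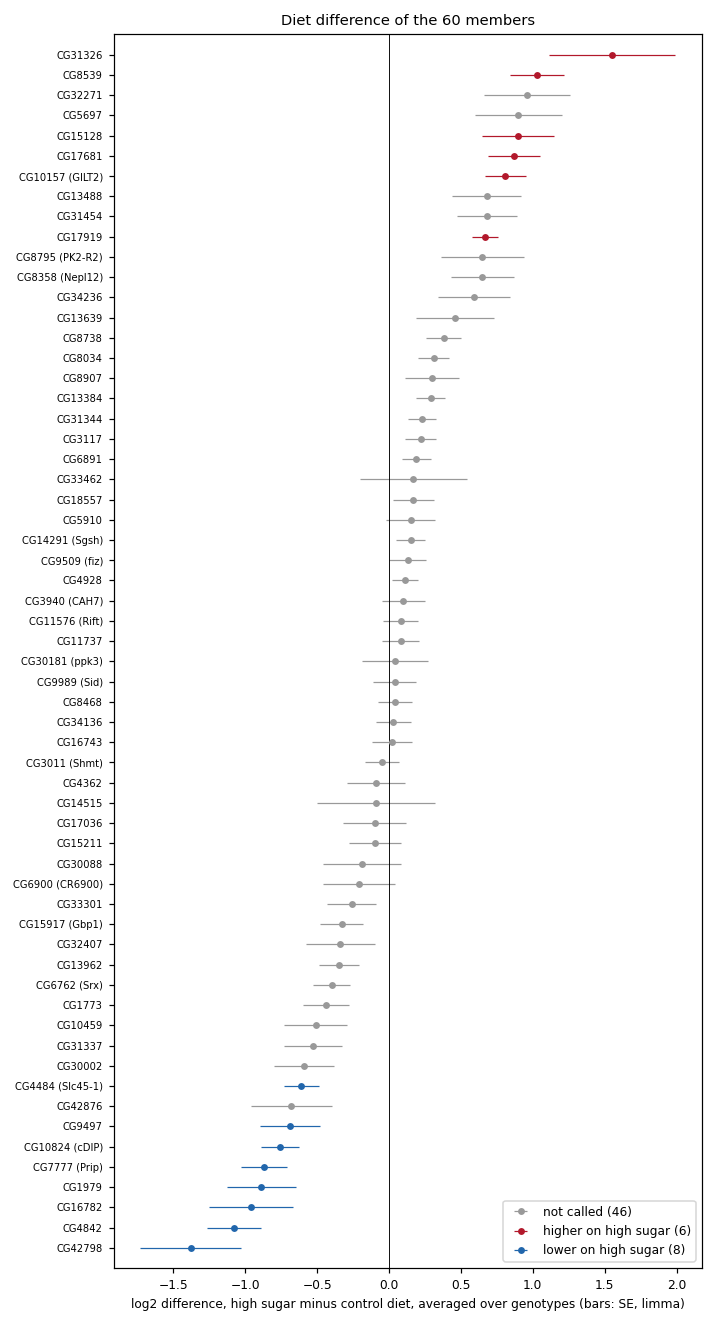
Averaged diet difference (x axis, log2 of scaled reads + 1, high sugar minus control diet) of the 60 members with SE bars from limma, red where called higher, blue where called lower and grey where not called. CG31326 lies at the top with 1.55 and CG42798 at the bottom with -1.38.

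Counted within a genotype, the diets were apart in 9 members higher and 9 lower among the controls, where 10% and 9.76% of all genes were. Among the libraries labelled svp RNAi, 19 members were apart and higher and 14 apart and lower, where 17.4% and 13.7% of all genes were. These counts are not independent of the rule, which used every group mean and the spread within groups. They are given without comparison as a result. No member was apart in opposite directions in the 2 genotypes, as 0.769% of all genes were. At so low a share none would be usual in a set of this size, so this is no result about the members. The median within-genotype log2 difference was 0.03 in the controls and 0.09 in the libraries labelled svp RNAi.

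Markers of other tissues were measured beside the members, since dissected fat body can carry other cells. In bulk samples fewer cells of a type and less RNA per cell cannot be told apart. Of 13 muscle markers, 12 were apart and lower with the svp RNAi label on each diet, where 12.3% and 15.3% of all genes were, and 0 were higher. Their summed level was 11045 to 17326 against 26725 to 38010 on the control diet and 13870 to 16943 against 23323 to 33709 on high sugar. Of 9 hemocyte markers, 3 were lower and 1 higher on the control diet and 5 lower and 2 higher on high sugar, with summed levels of 4929 to 5652 against 6402 to 9064 and of 2819 to 3488 against 5162 to 6602. The shares of all genes apart and higher were 13.8% and 16.4%. Of 9 neuron markers, 4 were lower and 1 higher on the control diet and 6 lower and 1 higher on high sugar. Their sum was higher, at 3796 to 4802 against 2165 to 2641 and at 3768 to 4845 against 2341 to 2668, through Syt1 alone, which was at 1446 to 4438 over all libraries. Sums of midgut markers (8 of 10 measured) and salivary gland markers (6 of 7) overlapped between genotypes on both diets. Single markers of these were apart and lower: betaTry on the control diet, Sgs3 on high sugar and Sgs1 on both, with log2 ratios of -2.38 and -2.71 for Sgs1. Of 5 Malpighian tubule markers 1 was lower on each diet, and of 5 measured cuticle markers 1 was lower on the control diet and 3 on high sugar. Of 7 imaginal disc markers 2 were higher and 1 lower on high sugar, and the 1 ovary marker measured overlapped on both diets. The sums of Malpighian tubule, cuticle and imaginal disc markers overlapped on the control diet and not on high sugar. There, with the svp RNAi label, the sums were 529 to 589 against 649 to 715 for Malpighian tubule, 1521 to 1787 against 2483 to 3500 for cuticle and, higher, 832 to 920 against 650 to 795 for imaginal disc. The part of these tissues in the members' values was not tested.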

How the data were processed

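The authors deposited 1 table of normalized abundance, a signal per gene and library. The submitters' processing notes name edgeR, Bowtie 0.12.7, TopHat 1.3.2, Cufflinks 1.1.0 and the build dm3, and the sources used here give no counting tool, gene models, strandedness or filter. Of 9527 rows, 156 with repeated names (ignoring case) and 4 with bare numbers as names were left out, which kept 9367 genes. The deposited values have the form of the authors' edgeR adjustment to a common library size within each diet, a reading that rests on the inversion below and is not stated by the labels. Inverting it, with 1 factor per library and a dispersion of 0.03 per diet, brought 99.92% to 100% of values in genes with a group mean under 12 within 0.1 of a whole read, against 4.8% to 66.3% as deposited. The factors and dispersion were chosen to bring these same genes close to whole reads. In genes with a group mean of 12 to 20, not used in that choice, 99.73% to 100% of values came as close. The smallest recovered number was 1 read, so genes without reads in a library are not in the table.

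Genotype values are the deposited signal. The diet test used recovered reads scaled by the median of ratios, limma 3.58.1 in R 4.3.3 with a trend on log2(value + 1), 4 group means over 12 libraries and Benjamini-Hochberg adjustment. The script was tested on simulated data. Library replicate numbers were not used to pair samples in this test. The weak correlations of same-numbered libraries given below cannot tell if they were paired. Identifiers, arms, neighbours and overlaps come from RefSeq Release 6 and Ensembl BDGP6 annotation, not dm3, so no coordinate is given. All 60 members matched. Planned protein and promoter features were not analysed here.

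The members, lists and tests were chosen with earlier results of these data known. Named genes are the 12 with the largest mean ratios, up to 5 called higher and 5 lower by diet, neighbours, the 3 genes on each side of the threshold, the 5 highest and the 5 with the largest difference between diets. Other members are named for a known role or a wide spread, after their values were seen. Alternatives varied the pseudocount, the filter, the scaling, the test, the replicate block and each library.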

Additional observations from a re-analysis of the deposited data

How the results depend on the processing

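The rule found 60 members with the values as reported and 57 to 65 with 1 library left out, and 40 of the 60 met it in all 12 such runs. Leaving out a library cannot make separate groups overlap, so in these runs a member could fail by its ratio alone. It found 61 with a pseudocount of 0.1, 45 with 10, 60 on recovered reads scaled jointly and 52 among genes with a mean of at least 20. The diet counts of 6 higher and 8 lower ranged from 4 to 7 higher and from 5 to 8 lower with 1 library left out, where the 5 lower came without control-diet control replicate 1 and without control-diet svp RNAi replicate 2. On the deposited values as they are, whose median over genes differed by 0.103 (log2) between diets against -0.009 after joint scaling, 17 were higher and 6 lower, and 1701 of all genes were called against 1035. Quantile normalization gave 8 higher and 6 lower and limma voom 7 and 6. With a mean of at least 20, 5 were lower. Of the 14 diet calls, 8 held in all 12 runs that left out a library and 9 in all 9 other alternatives. The cause of these shifts was not tested, except that the filter removes CG16782 and CG1979 from the test.

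With the replicate number as a block (replicate block), 8 members were higher and 6 lower. Same-numbered libraries correlated at -0.237 to 0.189 in their deviations, above 0.1 in 3 of 18 pairs, and 4 of 12 libraries were closest to their own number. Depth limits the folds of the 22 members with fewer than 10 reads in a control library.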

Other observations

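The median spread among replicates was larger in the members than over all genes. This comparison was not matched for depth or exon length, and the rule's condition of no overlap acts on the same spread. The median pooled SD within groups was 0.34 on the log2 scale for the 60 members and 0.25 for all genes, with the widest spread in CG31326, CG14515 and CG33462 at 0.87, 0.86 and 0.83. Libraries of a group also differed over the set: 45 of 60 members lay above their group's mean in control-diet svp RNAi replicate 1 and 15 in replicate 3, with median deviations of 0.15 and -0.15. Among the high-sugar controls, 20 lay above the mean in replicate 1 and 41 in replicate 2, with medians of -0.14 and 0.14. The median deviation over all genes was between -0.02 and 0.02 in these libraries.

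Over the 12 libraries, which are shared by all genes, deviations from the group means correlated at a median of 0.11 over the 1770 pairs of members and of 0.17 over the 36 pairs of serine protease members. Among neighbouring members the correlation was 0.85 for CG30002 and CG1773, 0.37 for CG11737 and CG31454, 0.30 for CG18557 and CG3117 and 0.28 for CG1773 and CG10459. The highest of the 1770 values were 0.90 for CG31337 and Prip and 0.89 for CG1773 and fiz, both pairs on different arms. No values for pairs over all genes are given beside these. They are thus no measure of shared change particular to the members.

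The members lie on 3R in 21 cases (35.0%, against 25.2% of matched CG genes), on 2R in 13 (21.7% against 19.7%), on 2L in 11 (18.3% against 17.7%), on X in 9 (15% against 17.1%) and on 3L in 6 (10% against 19.7%). Their median exon length was 1437 bases, against 1882 bases for matched CG genes and 2136 bases for all matched genes. CG6900 is annotated as the pseudogene CR6900 and was at 5.41 ± 2.52 against 14.1 ± 3.03 on the control diet and at 4.77 ± 0.432 against 12.8 ± 1.55 on high sugar (SD, n = 3).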
